A study of Homo sapiens with 6 samples.

Results

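10 genes of the mature gut lining were followed through 6 RNA libraries: VIL1, LGALS4, CDH17, AGR2, AGR3, TFF3, MUC5AC, MUC13, GUCY2C and CEACAM5. They were chosen by symbol, as products that enterocytes and mucus cells use to do their work, and all 10 were found among the 60664 gene identifiers of the count table. The mRNA libraries came from HCT8, an established line from a human colorectal carcinoma, grown in DMEM with fetal bovine serum. The 3 control libraries (genotype WT) are of cells transfected with a control plasmid. In the 3 GPT1 libraries (genotype GPT1 overexpression) the cells carried an overexpression plasmid for GPT1, the cytosolic alanine aminotransferase, whose gene symbol is GPT. The labels name neither clones or pools nor the time from transfection to harvest. The series set out to find the signalling that GPT1 regulates.

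Enterocytes absorb nutrients through a brush border of microvilli, whose actin cores are bundled by villin. Goblet and surface mucous cells fold, package and secrete gel-forming mucins and the small trefoil peptides that accompany them. The luminal membrane of both carries glycoproteins and receptors such as transmembrane mucins, carcinoembryonic antigen and guanylate cyclase C. Colorectal cancer lines keep these products to very different degrees.

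Library totals ranged from 21255655 to 32487217 counts, control replicate 3 being the shallowest. GPT had 3 to 14 counts in the control libraries and 96886 to 106063 counts in the GPT1 libraries. Of the defining markers of colorectal epithelium, EPCAM (24.8 ± 1.15 CPM), CDH1 (50.0 ± 6.26 CPM), KRT8 (529 ± 45.3 CPM) and CDX2 (41.7 ± 4.47 CPM) were present in the controls, and KRT20 was nearly absent with 5 counts (CPM, counts scaled to library size; SD, n = 3). The libraries also held markers that fall outside such a line. All 12 genes of a kidney-line and neural list had enough reads to be tested, but at very unequal levels. In the controls they ran from PAX8 at 0.498 ± 0.17 CPM to NEFM at 292 ± 41.6 CPM, with PAX2 at 5.64 ± 0.52 CPM. VIM, a mesenchymal marker, was at 1022 ± 14.5 CPM. The libraries are RNA from whole cultures, so that fewer cells of a type and less RNA per cell cannot be told apart. No source says that replicates came from separate cultures, so the p-values measure the spread between these libraries, which may be technical.

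The gene set split by depth before any comparison. VIL1, LGALS4, CDH17, AGR2, MUC13 and MUC5AC had enough reads to be tested, 6 of 10, and AGR3, TFF3, GUCY2C and CEACAM5 did not. The 10 genes together had 858, 912 and 575 counts in control replicates 1, 2 and 3, and 220, 190 and 220 counts in GPT1 replicates 1, 2 and 3. VIL1 alone supplied 41.8% to 48.9% of these counts. All 6 measured genes fell in the GPT1 libraries, and all 6 had every GPT1 library below every control library. Across the 17638 tested genes, 14.6% passed the 0.05 threshold downward (Benjamini-Hochberg adjusted p from edgeR's quasi-likelihood test), 3.37% did so with a fall of at least 2-fold, as did all 6 genes, and 22.2% had every GPT1 library below every control library. The median log2 fold change of the 6 genes was -2.16, beside -0.02 over all tested genes. MUC5AC reached the expression minimum of 0.321 CPM in the 3 control libraries and in 0 GPT1 libraries. It could therefore enter the test only through its high group, and the 6 of 6 is a description.

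**Figure D1:**
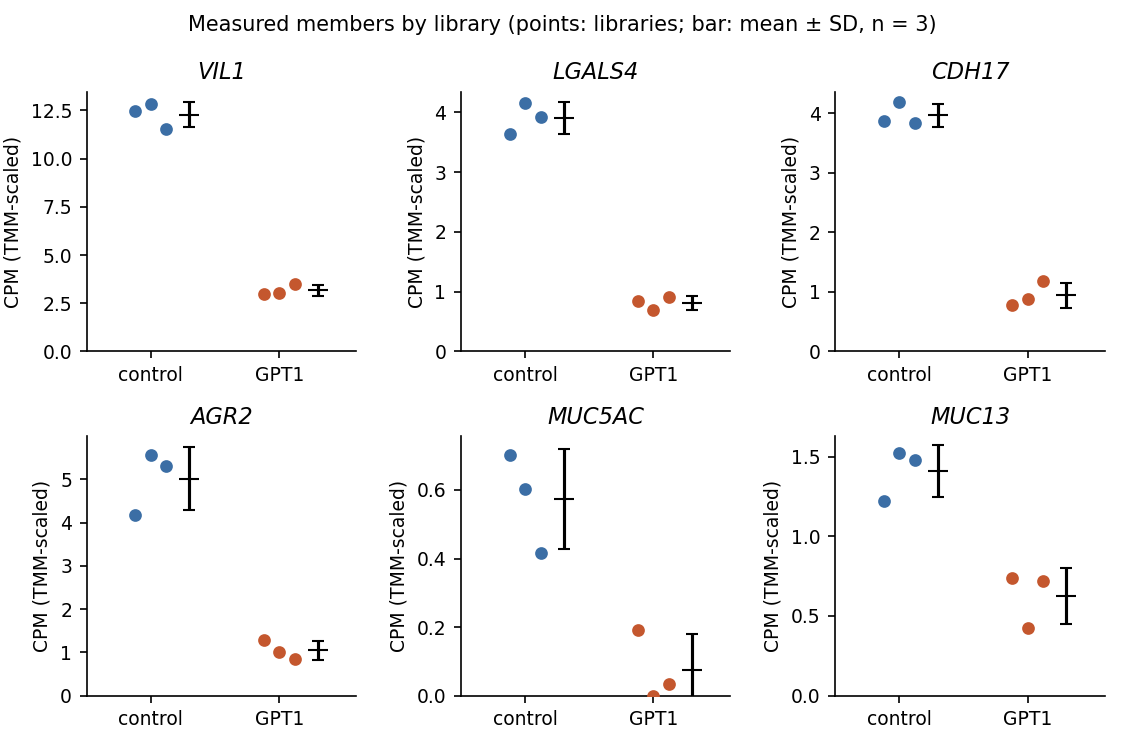
Level of the 6 measured genes in each library, in CPM scaled by TMM factors on linear axes that start at 0. Points are libraries and black bars are mean ± SD (n = 3, the lower bar of MUC5AC ending at the axis). In each panel the 3 GPT1 libraries lie below the 3 control libraries, with VIL1 at 12.3 against 3.17 CPM and MUC13 at 1.41 against 0.628 CPM.

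The brush-border gene VIL1 (ENSG00000127831, GRCh38 chromosome 2, 218419092 to 218453295, plus strand, protein-coding) encodes villin, the calcium-regulated protein that bundles and severs microvillar actin. Its reads numbered 408, 405 and 250 in control replicates 1 to 3 and 92, 93 and 107 in GPT1 replicates 1 to 3. VIL1 levels in CPM were 12.5, 12.9 and 11.6 against 2.96, 3.05 and 3.50. The libraries of a group lay close together and the groups were far apart. By edgeR the log2 fold change of VIL1 was -1.96, with an SE of 0.14 and an adjusted p = 1.6e-05, which left 25.8% of the control level.

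CDH17 (ENSG00000079112, chromosome 8, 94127171 to 94217303, minus strand) encodes LI-cadherin, a cadherin of the lateral membrane of intestinal epithelium. CDH17 reads numbered 127, 132 and 83 under control plasmid, and 24, 27 and 36 under GPT1. As CPM, 3.88, 4.19 and 3.84 became 0.772, 0.884 and 1.18, with GPT1 replicate 3 the highest of its group. The log2 fold change of CDH17 was -2.07 ± 0.20 (adjusted p = 0.00013, edgeR).

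LGALS4 (ENSG00000171747, chromosome 19, 38801671 to 38813364, minus strand) encodes galectin-4, a lectin of the gut epithelium that stabilises lipid rafts and apical transport. It went from 119, 131 and 85 counts to 26, 21 and 28 counts. As CPM, LGALS4 stood at 3.63, 4.16 and 3.93 in the controls and at 0.836, 0.688 and 0.915 in the GPT1 libraries, so that no library of either group came near the other. Its log2 fold change was -2.26 ± 0.19 (adjusted p = 5.4e-05, edgeR), which left 20.8% of the control level.

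AGR2 (ENSG00000106541, chromosome 7, 16791811 to 16833433, minus strand) encodes a protein disulfide isomerase of the endoplasmic reticulum that mucus-secreting cells need to fold mucins. AGR2 reads fell from 137, 175 and 115 to 40, 31 and 26. As CPM, 4.18, 5.55 and 5.31 became 1.29, 1.02 and 0.849, with no overlap between the groups. The log2 fold change was -2.25 ± 0.21 (adjusted p = 9.5e-05, edgeR). Its paralog and neighbour AGR3 (ENSG00000173467, chromosome 7, 16859405 to 16881987, minus strand) had 0 counts in all 6 libraries. A count of 0 allows at most 3 counts, or 0.0349 CPM over the control group and 0.0325 CPM over the GPT1 group (counting error only), so no fold can be given.

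Upstream sequences are shown for genes whose levels fell together or, for AGR3, as the undetected neighbour of AGR2. A RefSeq table on GRCh38.p14 held promoters for 5 of the 10 genes, namely LGALS4, AGR2, AGR3, MUC13 and CEACAM5. For LGALS4, AGR2 and MUC13 the RefSeq start lies inside the gene span stated in this report and is not its outermost start. Which start these cells used was not tested. Each sequence below is the 250 bases before the RefSeq start, 5′ to 3′ on the gene's strand, with motif matches in capitals.
LGALS4, chr19:38812946-38813195, minus strand: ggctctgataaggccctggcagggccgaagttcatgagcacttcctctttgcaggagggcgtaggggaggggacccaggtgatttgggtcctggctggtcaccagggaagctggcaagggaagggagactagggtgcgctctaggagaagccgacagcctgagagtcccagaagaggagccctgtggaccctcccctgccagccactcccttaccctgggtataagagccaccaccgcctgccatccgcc
AGR2, chr7:16805000-16805249, minus strand: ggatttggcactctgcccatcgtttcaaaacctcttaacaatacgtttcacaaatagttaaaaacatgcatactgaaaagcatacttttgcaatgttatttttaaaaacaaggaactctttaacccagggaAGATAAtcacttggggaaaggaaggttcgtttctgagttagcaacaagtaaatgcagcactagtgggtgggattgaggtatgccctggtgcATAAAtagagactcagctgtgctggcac
AGR3, chr7:16881984-16882233, minus strand: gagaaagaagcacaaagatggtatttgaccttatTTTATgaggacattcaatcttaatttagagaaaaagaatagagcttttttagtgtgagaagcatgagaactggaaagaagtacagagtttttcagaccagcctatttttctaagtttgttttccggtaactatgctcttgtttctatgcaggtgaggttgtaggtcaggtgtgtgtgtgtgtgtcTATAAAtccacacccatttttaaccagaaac
MUC13, chr3:124934752-124935001, minus strand: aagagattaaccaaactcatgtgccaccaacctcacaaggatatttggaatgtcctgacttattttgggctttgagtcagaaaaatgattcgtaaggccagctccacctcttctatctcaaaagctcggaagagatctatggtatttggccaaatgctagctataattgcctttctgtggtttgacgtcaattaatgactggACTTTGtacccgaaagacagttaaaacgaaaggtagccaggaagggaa

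In all, 4 motifs were searched on both strands of the 300-base windows, which reach 50 bases past the start. They were TTTAT, the core bound by CDX factors, the single-subunit site CAAAGT of HNF4, the GATA site AGATAA, and the TATA box TATAAA. LGALS4 held no exact match to any of them, though its printed stretch has the near matches TGATAA and TATAAG. Near matches were not searched in any promoter. LGALS4 has a base composition of 63.2% GC in the printed stretch, against 36.4% to 41.6% in the other 3. AGR2 held AGATAA at -119 and the reverse complement of TTTAT at -28, counting the RefSeq start as 0. AGR3 held TATAAA at -31 and, inside it, the reverse complement of TTTAT at -30, besides a forward TTTAT at -216. MUC13 held the reverse complement of CAAAGT at -48. Among 35116 RefSeq promoters of the same length, TTTAT occurred in 34.9%, CAAAGT in 11.9%, AGATAA in 10.3% and TATAAA in 11.5%. These are letter matches, which describe the sequence and say nothing on binding.

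The mucins fell by unequal amounts. MUC13 (ENSG00000173702, chromosome 3, 124905442 to 124953819, minus strand) encodes a transmembrane mucin of the enterocyte and goblet cell surface. Control libraries gave 40, 48 and 32 MUC13 reads and GPT1 libraries 23, 13 and 22. As CPM, 1.22, 1.52 and 1.48 became 0.740, 0.426 and 0.719. The gap between the groups was the narrowest of the 6 genes on the log scale, with GPT1 replicate 2 the lowest library. The log2 fold change of MUC13 was -1.15 ± 0.28 (adjusted p = 0.0162, edgeR), which left 44.6% of the control level.

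MUC5AC (ENSG00000215182, chromosome 11, 1157953 to 1201138, plus strand) encodes the gel-forming mucin of gastric surface cells, which normal colon makes little of and some colorectal tumours make. Control libraries gave 23, 19 and 9 MUC5AC reads and GPT1 libraries 6, 0 and 1. These are few reads on a long gene that lies beside related mucin genes, with which reads may be shared. The fitted log2 fold change was -2.88 ± 0.67 (adjusted p = 0.0137, edgeR). It was not called without control replicate 1 (adjusted p = 0.0502) or GPT1 replicate 3 (adjusted p = 0.0615), and the value was -4.84 without GPT1 replicate 1. The ratio of summed counts, GPT1 over control, was 0.128, and its exact 95% counting interval ran from 0.0489 to 0.283.

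Such ratios put the measured genes side by side. The ratio was 0.256 (0.224 to 0.291) for VIL1, 0.237 (0.185 to 0.301) for CDH17, 0.212 (0.168 to 0.264) for AGR2 and 0.209 (0.160 to 0.269) for LGALS4. These 4 intervals overlap one another. The ratio of MUC13 was 0.450 (0.323 to 0.621), with an interval above all of them. The intervals hold counting error and no spread between libraries, and the difference between MUC13 and the other genes was not tested over libraries.

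TFF3, GUCY2C and CEACAM5 were at the edge of detection in both groups. TFF3 (ENSG00000160180, chromosome 21, 42311667 to 42315651, minus strand), the trefoil peptide that goblet cells secrete with mucin, had 1, 0 and 0 reads under control plasmid and 4, 2 and 0 under GPT1. GUCY2C (ENSG00000070019, chromosome 12, 14612632 to 14696585, minus strand), the receptor of guanylin, uroguanylin and bacterial heat-stable toxin, had 1, 0 and 0 counts against 5, 1 and 0. CEACAM5 (ENSG00000105388, chromosome 19, 41708585 to 41729798, plus strand), carcinoembryonic antigen, had 2, 2 and 1 counts against 0, 2 and 0. The groups overlap for each of the 3 genes.

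The summed counts do not settle a direction for any of these 3. The ratio of GPT1 over control was 5.59 for TFF3 and for GUCY2C, with an exact 95% interval from 0.678 to 257 for both, and 0.373 for CEACAM5, with an interval from 0.0355 to 2.28. GPT1 replicate 1 held 4 of the 6 TFF3 reads and 5 of the 6 GUCY2C reads of its group, and without it the ratios were 2.81 and 1.41. Without GPT1 replicate 2, CEACAM5 had 0 counts left in the GPT1 group. With no expression filter, the edgeR test gave adjusted p = 0.449 for TFF3, 0.449 for GUCY2C and 0.596 for CEACAM5. A difference was not detectable at this depth.

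**Figure D2:**
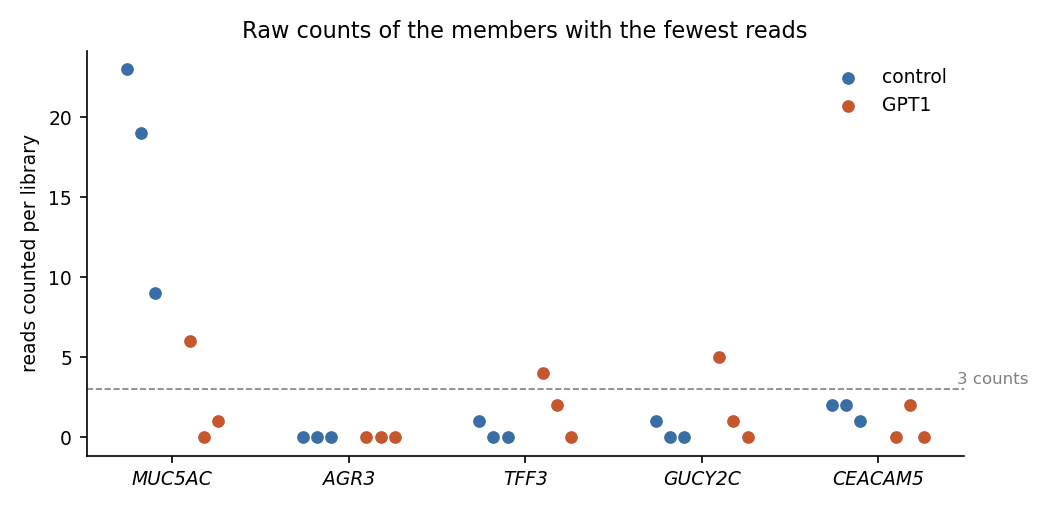
Raw reads per library for MUC5AC and the 4 genes that were too low to test, with a dashed line at 3 counts, the most that a count of 0 allows. Only MUC5AC rises above 6 counts in any library, with 9 to 23 counts in the controls, and AGR3 has 0 in all 6 libraries.

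Levels of different genes can be compared only per transcript length, here as CPM per kilobase of the longest protein-coding GENCODE 29 transcript. In the controls AGR2 (2.82 ± 0.41) and LGALS4 (2.54 ± 0.17 CPM per kilobase) led, and their libraries overlapped. VIL1 (1.88 ± 0.10), CDH17 (1.07 ± 0.05), MUC13 (0.489 ± 0.06) and MUC5AC (0.0329 ± 0.008 CPM per kilobase) followed, each step without overlap between libraries. In the GPT1 libraries AGR2 (0.591 ± 0.12), LGALS4 (0.530 ± 0.08) and VIL1 (0.485 ± 0.04 CPM per kilobase) overlapped, as did CDH17 (0.256 ± 0.06) and MUC13 (0.218 ± 0.06 CPM per kilobase). The level of VIL1 rests on a transcript of 6531 bases and would be higher relative to the others with a shorter one.

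The genes were next set against epithelial markers of the same library, a comparison chosen after their values were seen. Of 12 colorectal epithelial markers 11 were measured and 10 fell, where 14.6% of all tested genes did. Their summed level was 955 to 1102 CPM in the controls and 598 to 666 CPM in the GPT1 libraries. Most of this sum was KRT8 (529 ± 45.3 to 351 ± 19.3 CPM) and KRT18 (261 ± 25.8 to 171 ± 12.6 CPM), which fell less than CDH1. None of the 12 was at 0. CDH1, which encodes E-cadherin, had a log2 fold change of -2.01 ± 0.14, close to those of VIL1, CDH17, LGALS4 and AGR2. Per 100 CDH1 counts, VIL1 stood at 22.2, 25.5 and 26.5 under control plasmid and at 24.6, 27.8 and 24.3 under GPT1. LGALS4 (7.91 ± 1.30 and 6.53 ± 0.37), CDH17 (8.01 ± 0.98 and 7.55 ± 0.99) and AGR2 (10.2 ± 2.46 and 8.62 ± 2.46 counts per 100 CDH1 counts) overlapped between the groups as well. MUC5AC, with few reads, also overlapped, at 1.13 ± 0.16 in the controls and 0.611 ± 0.87 in the GPT1 libraries. MUC13 stood higher per CDH1 count in every GPT1 library, at 5.01 ± 1.13 against 2.86 ± 0.62.

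Overlap of 3 against 3 ratios does not show that a proportion to CDH1 was kept. Of all tested genes, 4.18% overlapped between groups per CDH1 count, 95.7% were higher in every GPT1 library and 0.136% were lower. Relative to EPCAM, which fell less (log2 fold change -1.42 ± 0.11), VIL1, LGALS4, CDH17 and AGR2 were lower in every GPT1 library, where 0.646% of tested genes were, and MUC13 and MUC5AC overlapped between the groups, as did 8.02%. Relative to KRT8, which encodes a keratin of simple epithelia (-0.59 ± 0.09), all 6 measured genes were lower in every GPT1 library, where 2.52% of tested genes were. The same held for all 6 relative to CDX2, where 21.2% of tested genes were. MUC5AC had 6, 0 and 1 reads in GPT1 replicates 1 to 3 and entered the test only through its control level. Both counts of 6 are therefore descriptions. With 3 against 3 libraries an exact permutation test of a ratio to a marker cannot give p below 0.1. The part that the share or state of epithelial cells has in these falls was not tested.

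**Figure D3:**
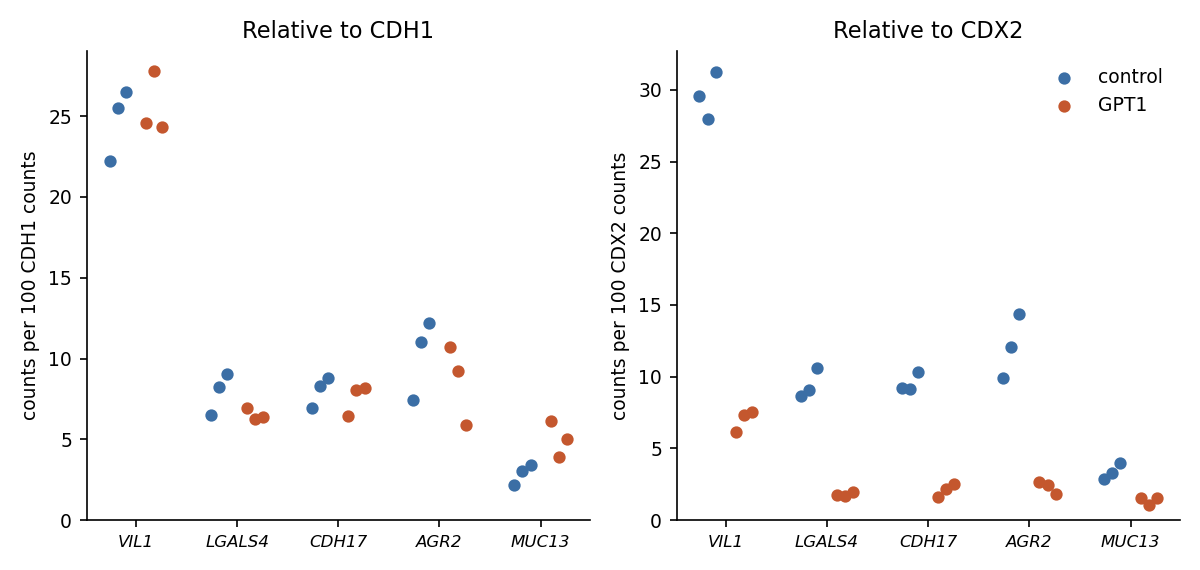
Counts of 5 measured genes per 100 counts of CDH1 (left) and of CDX2 (right) in each library, on linear axes from 0, with points for libraries. Relative to CDH1 the control and GPT1 points of VIL1, LGALS4, CDH17 and AGR2 intermingle and those of MUC13 do not, while relative to CDX2 all 5 genes are lower in the 3 GPT1 libraries.

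Markers of other cell types moved unevenly. Of the 12 kidney-line and neural genes 4 fell and 8 were not called, the list's sum going from 574 to 674 CPM in the controls to 362 to 377 CPM, and none was at 0. NEFM fell (-1.49 ± 0.10), while PAX2 stood at 5.64 ± 0.52 and 5.14 ± 0.81 CPM. Fibroblast genes summed to 50.7 to 53.9 CPM in the controls and 61.0 to 62.9 CPM in the GPT1 libraries, with 2 of 5 measured genes higher and THY1 and FAP at 0. The call of LUM, one of these 2, did not hold, at edgeR adjusted p up to 0.138, without control replicate 1 or 2 or GPT1 replicate 1 or 3. Enteroendocrine genes (28.0 to 39.4 and 27.0 to 34.6 CPM) had no call among 4 measured.

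Lists of the remaining cell types had low sums. Gastric surface genes summed to 0.397 to 0.666 CPM in the controls and 0.721 to 0.980 CPM in the GPT1 libraries, with GKN1, GKN2, CLDN18 and MUC6 at 0 and no call for the 1 measured gene. Paneth cell genes stayed under 0.232 CPM in every library, with DEFA5 and DEFA6 at 0. Leukocyte genes (1.76 to 2.32 and 2.29 to 2.89 CPM, CD3E at 0) had no call among 2 measured, and endothelial genes (0.190 to 0.277 and 0.386 to 0.950 CPM) had none measured. Hepatocyte genes stood at 2.73 to 3.88 and 0.849 to 0.950 CPM, with SERPINA1, the 1 measured, lower. The part of these markers in the falls was not tested.

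Other enterocyte genes followed in part. Of 32 listed, 15 were measured, 8 fell and 7 were not called, with a median log2 fold change of -0.60, and without GPT1 replicate 1 the number that fell was 5. ESPN, which encodes the microvillar actin bundler espin, went from 3.45 ± 0.28 to 0.758 ± 0.19 CPM (log2 fold change -2.18 ± 0.22). SLC5A1, the sodium-glucose transporter SGLT1, went from 1.77 ± 0.29 to 0.380 ± 0.05 CPM (-2.22 ± 0.27). USH1C, which encodes the scaffold harmonin of the links between microvilli, fell less (-1.09 ± 0.16), as did the carbonic anhydrase gene CA2 (123 ± 2.48 to 79.1 ± 2.21 CPM). EZR, which encodes ezrin, the linker of microvillar actin to the membrane, stood at 226 ± 14.9 and 254 ± 10.2 CPM (adjusted p = 0.149, edgeR). SLC26A3, APOA4 and TMIGD1, products of fully mature enterocytes, were at 0 in all libraries.

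Other secretory genes were detected unevenly. Of 28 other mucin, trefoil and goblet genes 11 were measured, with 3 lower, 1 higher and 7 not called (median -0.02). ST6GALNAC1, the sialyltransferase that makes the sialyl-Tn antigen on mucins, went from 0.553 ± 0.12 to 0.0866 ± 0.07 CPM and the membrane mucin gene MUC3A from 1.13 ± 0.27 to 0.358 ± 0.09 CPM. MUC20 fell too (-1.46 ± 0.36), a call that was lost, with edgeR adjusted p up to 0.0694, when control replicate 1 or GPT1 replicate 3 was left out. BCAS1 rose from 11 to 36 summed counts, a call that was lost with DESeq2, with no expression filter, and without control replicate 2 or 3 or GPT1 replicate 1 or 3, where edgeR gave adjusted p up to 0.108. Of all tested genes 10.5% were called higher. MUC2, the main gel-forming mucin of the colon, had 2 counts in each group, and the goblet product genes CLCA1 and RETNLB had 0. REG4, too low to be tested, had 0, 3 and 0 counts in control replicates 1 to 3 and 6, 6 and 11 in GPT1 replicates 1 to 3. CREB3L1, a transcription factor of secretory cells, stood at 9.72 ± 0.64 and 9.58 ± 1.19 CPM. FOXA3, a forkhead factor, had 5.86 ± 1.12 CPM under control plasmid and 8.17 ± 1.37 CPM under GPT1 (log2 fold change 0.47 ± 0.18, edgeR adjusted p = 0.0717). It was called higher in 4 of 18 alternatives. Among these were no expression filter (adjusted p = 0.0292) and the length and GC correction (adjusted p = 0.0360, edgeR). The other 14 did not call it, with edgeR adjusted p up to 0.255 when 1 library was left out.

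Relatives of single genes in the set did not all share their fall. Of 17 genes of the protein disulfide isomerase family, to which AGR2 belongs, 16 were measured and 14 were not called (median 0.03), with P4HB at 936 ± 101 and 962 ± 39.9 CPM. PDIA5 fell (-0.38 ± 0.10) and TXNDC12, of the same subfamily as AGR2 and AGR3, rose (0.51 ± 0.16). The call of PDIA5 was lost without control replicate 1 or any 1 GPT1 replicate (edgeR adjusted p up to 0.104). That of TXNDC12 was lost without control replicate 1 or 2 or GPT1 replicate 2 or 3 (up to 0.155) as well as with library totals as the only scaling and with limma voom. Without control replicate 2 the family's count of lower genes was 2.

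Among 14 other galectins 6 were measured and 3 fell. LGALS8 (-2.18 ± 0.22), a tandem-repeat galectin like LGALS4, went from 5.01 ± 0.83 to 1.10 ± 0.27 CPM and LGALS3 from 15.4 ± 2.10 to 8.05 ± 1.53 CPM. LGALS7B (-1.91 ± 0.41) was the third. Its near-identical copy LGALS7 had 5 counts in the controls and 1 in the GPT1 libraries, and how reads were split between the copies is not stated. LGALS1 was not called, with 22.4 ± 0.27 and 20.8 ± 2.25 CPM (edgeR adjusted p = 0.532), but was called lower with the length and GC correction (edgeR adjusted p = 0.0230).

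Of 11 other CEACAM genes 2 were measured. CEACAM1, a cell adhesion receptor of epithelium and leukocytes, fell from 0.942 ± 0.34 to 0.271 ± 0.12 CPM, which edgeR no longer called without control replicate 1 or GPT1 replicate 3, at adjusted p up to 0.0581. CEACAM19 stood at 5.64 and 6.23 CPM. CEACAM3, CEACAM4, CEACAM7, CEACAM8 and CEACAM18 were at 0, and reads may be shared within this family.

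The guanylin pathway around GUCY2C lacked its ligands, GUCA2A and GUCA2B both being at 0 in all libraries. Of 12 listed genes 5 were measured and 3 fell, namely the cGMP-dependent kinase gene PRKG1 (-0.85 ± 0.17), the phosphodiesterase gene PDE5A (-0.75 ± 0.20) and the cyclic nucleotide exporter gene ABCC4 (-0.46 ± 0.14). Without GPT1 replicate 1 or GPT1 replicate 3 the number that fell was 1. PDE5A lost its call in both cases (edgeR adjusted p up to 0.0880), and so did ABCC4, which also lost it without control replicate 1 or 3 and when fold changes were corrected for length and GC (up to 0.143 without a library). That correction brought the log2 fold changes to -0.44 for PRKG1, -0.33 for PDE5A and -0.23 for ABCC4.

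The transcription factors that govern intestinal genes split. Of 19 listed, 17 were measured, 10 fell, GATA6 rose and 6 were not called (median -0.44). The epithelial ETS factors EHF (8.17 ± 0.12 to 1.95 ± 0.28 CPM) and ELF3 (5.57 ± 0.46 to 1.35 ± 0.10 CPM) had log2 fold changes of -2.06 ± 0.15 and -2.04 ± 0.16, near those of VIL1 and CDH17. HNF4A (-1.54 ± 0.20), a nuclear receptor that regulates enterocyte genes, fell from a low level of 2.97 ± 0.32 CPM to 1.02 ± 0.17 CPM. CDX2, the factor that sets intestinal identity, stood at 41.7 ± 4.47 and 45.3 ± 3.56 CPM (adjusted p = 0.448, edgeR). The number that fell was 5 without control replicate 1 or GPT1 replicate 1 and 4 without GPT1 replicate 3. The call of GATA6 (0.33 ± 0.11) ended, at edgeR adjusted p up to 0.153, without control replicate 1 or 3 or GPT1 replicate 1 or 3.

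**Figure D4:**
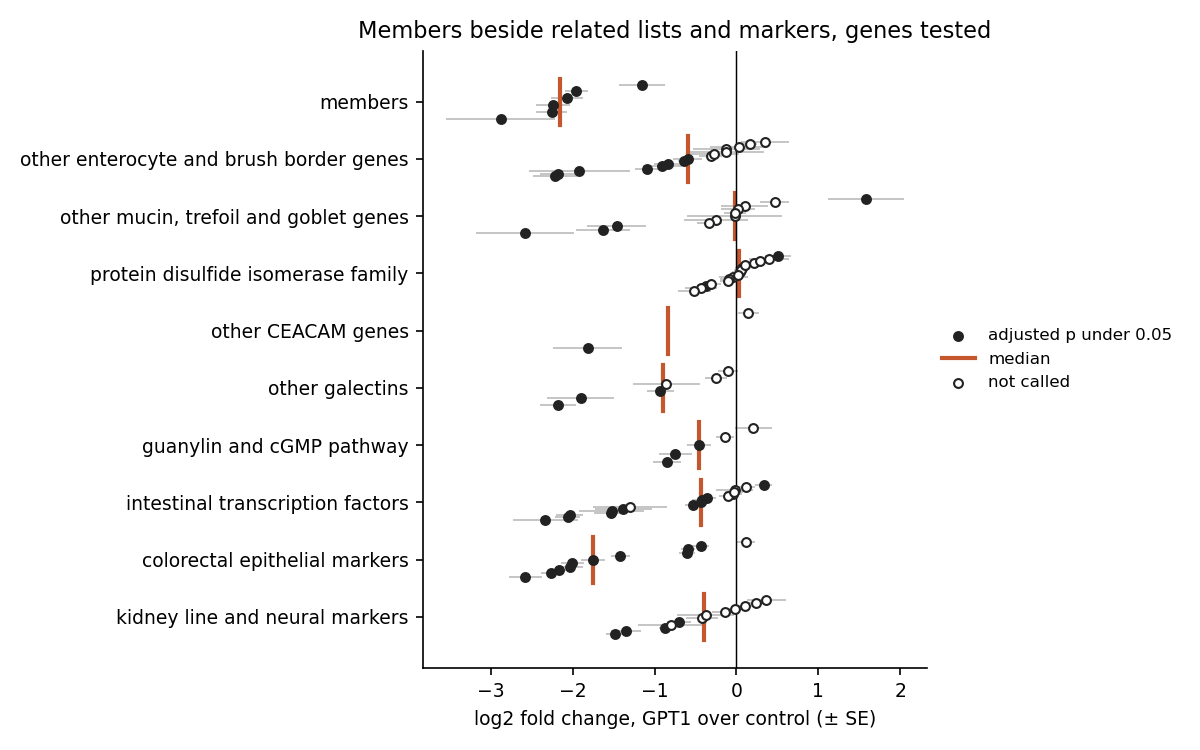
Log2 fold change (GPT1 over control) of every tested gene of the set, of the 7 related lists and of 2 marker lists, with grey bars for SE, filled points for an adjusted p under 0.05 (edgeR) and orange bars for medians. The 6 measured genes of the set have a median of -2.16, beside -0.60 for other enterocyte genes, -0.02 for other mucin, trefoil and goblet genes and 0.03 for the protein disulfide isomerase family.

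Genes with a similar profile were sought by distance. Each gene's log2 CPM was centred on its own mean over the 6 libraries and compared with the mean profile of the 5 measured genes at 1 CPM or more. Among 11718 other genes with a mean of at least 5 CPM, the root-mean-square distance was smallest for TNS4 (0.113 on the log2 scale), a tensin of focal adhesions, followed by CSRP1 (0.130), PPL (0.130), ST14 (0.131) and PLPP2 (0.140). PPL encodes periplakin, a desmosomal linker, and ST14 the membrane serine protease matriptase. TNS4 went from 17.9 ± 1.42 to 4.85 ± 0.24 CPM. VIL1 itself lay at 0.107 from the profile and MUC13, the farthest of the 5, at 0.418.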

How the data were processed

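The deposited table held raw read counts per Ensembl gene, whole numbers that the authors made for each of 6 samples. The submitters' processing notes name HISAT2 2.0 and GRCh38. No label names the counting tool, annotation release or strand setting, so reads of overlapping genes and close paralogs cannot be assigned with certainty. Symbols matched 60463 of 60664 identifiers, and coordinates are those of GENCODE 29.

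In R 4.3.3, edgeR 4.0.16 kept 17638 genes by filterByExpr, scaled libraries with TMM factors and compared groups with the two-sided quasi-likelihood F test and Benjamini-Hochberg adjustment over all tested genes (threshold 0.05). CPM used total counts times TMM factors. Each SE is the absolute log2 fold change over the square root of F. The script was tested on simulated data. Counts of replicates differed by a chi-square of 9.98 to 30.8 per degree of freedom, so all 6 libraries counted as separate.

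Genes and lists were chosen with earlier results of these data known. Beside the 10 genes, named genes were, in each list, taken from the 4 measured with the smallest adjusted p and the 2 with the highest level, plus EPCAM, CDH1, CDX2, PAX2, NEFM and VIM as checks of the cell label and the 5 most similar profiles. KRT20, MUC2, REG4, PAX8, ISX and genes at 0 were added after their values were seen. Alternatives were other scaling factors and filters, DESeq2 1.42.0, limma voom 3.58.1, a threshold of 0.01, a replicate block, a length and GC correction (mgcv 1.9.3) and each library left out. Promoters came from RefSeq (GRCh38.p14). A planned item is not reported here.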

Additional observations from a re-analysis of the deposited data

How the results depend on the processing

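The 6 measured genes of the set kept their direction in every alternative that tested them, and VIL1, LGALS4, CDH17 and AGR2 also kept their call, with edgeR adjusted p up to 0.0014 when 1 library was left out. Of 103 values under alternatives for the 6, 99 kept their side of the threshold. The others were those of MUC5AC without control replicate 1, without GPT1 replicate 3 and at a threshold of 0.01, and of MUC13 at 0.01. Leaving out 1 library gave 5 to 6 falls. With a minimum of 5 CPM, VIL1 alone could be tested, so that 1 fell and the median was -1.95 in place of -2.16. Depth limits AGR3, TFF3, GUCY2C and CEACAM5, with at most 7 counts each over all libraries.

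Over all tested genes, the minimum of 5 CPM gave 1694 lower, a threshold of 0.01 gave 681 lower and 491 higher, the length and GC correction gave 3499 higher, and that correction with the replicate block gave 2935 higher. Under the length and GC correction 2616 genes were lower, against 2572 without it, and lower genes made up 42.8% of calls in place of 58.1%, as higher calls went from 1858 to 3499. Leaving out 1 library gave 830 to 2937 lower and 613 to 1970 higher.

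The minimum of 5 CPM left 4 other enterocyte genes, 0 mucin and goblet genes, 0 CEACAM genes, 1 galectin and 5 transcription factors lower, and 0 mucin and goblet genes higher. The threshold of 0.01 left 5 enterocyte, 1 mucin and goblet, 0 disulfide isomerase, 0 CEACAM, 1 guanylin and 5 transcription factor genes lower, and 0 mucin and goblet, 0 disulfide isomerase and 0 transcription factor genes higher. Without an expression filter 3 disulfide isomerase genes were lower and 2 higher, and 2 mucin and goblet genes higher. DESeq2 gave 2 disulfide isomerase genes lower and 0 mucin and goblet genes higher. The count of higher disulfide isomerase genes was 2 with DESeq2 size factors, upper quartile factors or the length and GC correction, 0 with library totals only, and 0 with limma voom. The correction gave 2 mucin and goblet genes higher. Leaving out 1 library gave 5 to 9 lower enterocyte genes, 0 to 1 higher mucin and goblet genes, 0 to 2 lower and 0 to 1 higher disulfide isomerase genes, 0 to 1 lower CEACAM genes, 1 to 3 lower guanylin genes, and 4 to 11 lower and 0 to 1 higher transcription factors. The cause of these shifts was not tested.

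Libraries were correlated across groups after each gene's log2 CPM was centred on the mean of its group. The values thus compare what is left within groups and not the libraries as a whole. Same-numbered libraries had correlations of 0.141, -0.282 and -0.0838, and pairs of unlike number ran from -0.318 to 0.387. Pairing by replicate number was thus not seen, but 3 libraries per group cannot settle it. A replicate block gave 6 falls in the set, 2470 lower and 1416 higher genes in all, 0 higher disulfide isomerase genes and 0 higher transcription factors. Under this block edgeR no longer called BCAS1 (adjusted p = 0.0524), PDIA5 (0.0524), TXNDC12 (0.0569) or GATA6 (0.0863) and called FOXA3 (0.0464). With the length and GC correction added to the replicate block, 2 disulfide isomerase genes and 2 mucin and goblet genes were higher, ABCC4 was not called (edgeR adjusted p = 0.0778) and LGALS1 was called lower (0.0265).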
